A study of Mus musculus with 20 samples.

Results

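The globin chains of haemoglobin and 4 erythroid genes were followed in RNA from sorted F4/80+CD11b+ cells of mouse visceral adipose tissue (VAT) and spleen. The genes were taken by name: the alpha globins Hba-a1 and Hba-a2, the beta globins Hbb-bs, Hbb-bt and Hbb-b2, the haem synthesis enzyme Alas2, the red cell anion exchanger Slc4a1, the transcription factor Klf1 and the alpha globin chaperone Ahsp. Of these 9 symbols, 8 had a row among the 14191 genes of the 3 deposited tables, and Ahsp was not analysed here. Hbb-b2 and Hbb-bt held the same values in every library, so the 8 symbols gave 7 measurements, written below with Hbb-bt standing for that pair.

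Haemoglobin is a tetramer of alpha and beta globin chains, each with a haem group, and it is made in great amounts by erythroblasts, the nucleated precursors of red cells. Young red cells that have lost their nucleus still hold globin mRNA. In the mouse, the spleen makes red cells as well as clearing old ones: erythroblasts mature around a central macrophage, and macrophages of the red pulp engulf aged red cells and return their iron. Klf1 and the GATA factors switch on the globin genes, Alas2 catalyses the first and rate-limiting step of haem synthesis in erythroid cells, and Slc4a1 (band 3) is the main transport protein of the red cell membrane.

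All mice were male. Wild-type VAT cells came from mice of 3 months (3 libraries) and 24 months (4 libraries), and wild-type spleen cells from mice of 3 months (2 libraries) and 24 months (4 libraries). Mice lacking Nlrp3 (Nlrp3-/-), the sensor of an inflammasome, were 24 months old and gave 4 VAT and 3 spleen libraries. F4/80 and CD11b are surface proteins of macrophages, and CD11b is also found on neutrophils and monocytes. The labels do not say whether a library held the cells of 1 animal or of several.

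Each library held 24.1 to 37.5 M reads in the genes listed. The 13 wild-type libraries share 1 table of normalised read counts, all VAT libraries a second and all spleen libraries a further table, each normalised on its own, so levels were compared only within a table. A value of 1 is the lowest that the tables list and stands for no reads, or for 1 read in a library where a read is worth less than that. A level of 3 reads, taken as the floor of detection, stood at 2.33 to 3.85 normalised counts, for counting error only. Nlrp3 itself lay between 2708 and 4254 in the wild-type 24-month VAT libraries and between 6.15 and 200.4 in the Nlrp3-/- ones, and between 341 and 663 against 1 to 3.61 in spleen. The F4/80 gene Adgre1 was present in every library (17903 to 45465 in wild-type VAT, 5498 to 9360 in wild-type spleen), and so was the CD11b gene Itgam (7574 to 14267 and 3647 to 9400). Summed neutrophil markers ran from 177303 to 827929 in the wild-type spleen libraries and from 719 to 7938 in VAT.

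In the GENCODE annotation of the GRCm38 genome, which is the mm10 build named by the submitters, Hba-a1 lies on chromosome 11 from 32283511 to 32284465 on the forward strand, and Hba-a2 12023 bases further on, from 32296489 to 32297298. Hbb-bs (chromosome 7, 103826534 to 103828096) and Hbb-bt (chromosome 7, 103812524 to 103813996) lie on the reverse strand with 12537 bases between them. Each of these globin genes has 3 exons. Alas2 lies on chromosome X (150547375 to 150570638, forward strand, 11 exons), Slc4a1 on chromosome 11 (102348824 to 102366203, reverse strand, 20 exons) and Klf1 on chromosome 8 (84901928 to 84905291, forward strand, 3 exons).

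The copies within each globin pair are nearly the same, which limits how far their values can be read apart. Hba-a1 and Hba-a2 differ at 1 of 429 coding bases and share an unbroken identical run of 380 bases. Hbb-bs and Hbb-bt differ at 1 of 444 coding bases, with an identical run of 416. The coding stretches that hold the only difference of each pair are printed here, read in the direction of the gene, with the differing base in capitals (coding bases 351 to 410 of the alpha pair and 385 to 444 of the beta pair, GENCODE, GRCm38). A read that does not reach the capital letter or the exon parts outside the coding sequence fits both copies, and how the reads were shared out between copies is not given in the sources used here.
Hba-a1: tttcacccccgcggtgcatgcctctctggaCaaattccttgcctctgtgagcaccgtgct
Hba-a2: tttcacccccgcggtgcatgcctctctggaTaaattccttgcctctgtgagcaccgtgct
Hbb-bs: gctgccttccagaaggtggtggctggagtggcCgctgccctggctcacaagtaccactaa
Hbb-bt: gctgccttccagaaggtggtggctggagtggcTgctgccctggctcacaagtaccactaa

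The promoters of these genes were compared because the 4 globin genes varied together across libraries, with Alas2 following them less closely in VAT, as described further on. RefSeq promoters (GRCm38.p6) were found for 6 of the 9 symbols, and the 250 bases before the start were searched for words of the GATA factors (AGATAA or its variant AGATAG, and TGATAA or its variant TGATAG, on either strand), for the CACCC words bound by the Klf1 family (CCACACCC, CCACGCCC, CCCCACCC or CCCCGCCC, either strand), for CCAAT on either strand and for ATATAA on the sense strand. Matches of the GATA and CACCC words are in capitals, written as they read on the gene's own strand. The start is that of RefSeq, which lies inside the GENCODE gene span given above. Each window therefore takes in some bases that GENCODE annotates as gene. The windows are chr11:32283422-32283671 on the forward strand for Hba-a1, chr7:103827929-103828178 on the reverse strand for Hbb-bs, chr7:103813924-103814173 on the reverse strand for Hbb-bt, chrX:150547167-150547416 on the forward strand for Alas2 and chr8:84901732-84901981 on the forward strand for Klf1.
Hba-a1: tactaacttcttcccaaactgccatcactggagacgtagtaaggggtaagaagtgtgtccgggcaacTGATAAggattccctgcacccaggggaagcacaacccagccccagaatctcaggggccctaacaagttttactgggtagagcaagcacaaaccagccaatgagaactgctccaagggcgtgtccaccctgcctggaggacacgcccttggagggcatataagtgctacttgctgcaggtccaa
Hbb-bs: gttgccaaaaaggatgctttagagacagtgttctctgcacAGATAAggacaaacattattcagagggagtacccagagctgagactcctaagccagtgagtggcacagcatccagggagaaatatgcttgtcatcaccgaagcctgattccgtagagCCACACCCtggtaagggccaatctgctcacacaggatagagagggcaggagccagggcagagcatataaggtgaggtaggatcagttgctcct
Hbb-bt: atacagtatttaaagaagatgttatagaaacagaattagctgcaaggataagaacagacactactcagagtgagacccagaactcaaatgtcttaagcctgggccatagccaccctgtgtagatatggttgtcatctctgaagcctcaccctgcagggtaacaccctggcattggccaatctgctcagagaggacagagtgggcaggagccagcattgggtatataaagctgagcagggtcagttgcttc
Alas2: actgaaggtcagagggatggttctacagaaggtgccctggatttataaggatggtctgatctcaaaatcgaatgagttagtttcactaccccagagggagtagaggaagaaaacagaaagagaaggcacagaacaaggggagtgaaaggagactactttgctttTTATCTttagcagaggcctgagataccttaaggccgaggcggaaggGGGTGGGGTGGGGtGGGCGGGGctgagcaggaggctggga
Klf1: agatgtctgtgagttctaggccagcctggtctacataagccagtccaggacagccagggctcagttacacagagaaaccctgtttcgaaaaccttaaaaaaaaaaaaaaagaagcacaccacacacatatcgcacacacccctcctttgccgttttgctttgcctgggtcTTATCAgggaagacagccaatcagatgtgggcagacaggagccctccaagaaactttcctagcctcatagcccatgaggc

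The alpha globin promoters were the same sequence: Hba-a2 (chr11:32296242-32296491, forward strand) matched Hba-a1 at 247 of 247 overlapping bases, with the windows set 3 bases apart, and it is not printed. The beta globin promoters matched at 127 of 249 bases, although their coding sequences are nearly identical. A GATA word was found in the Hba-a1, Hba-a2, Hbb-bs, Alas2 and Klf1 windows, and at least 1 CACCC word in those of Hbb-bs and Alas2, where 2 of the 3 matches overlap each other. ATATAA stood close to the start in the 4 globin promoters. Of the 32851 promoters in the RefSeq table, 26.54% held a GATA word, 27.36% a CACCC word, 4.31% both, 33.85% a CCAAT and 5.57% an ATATAA, so a match to any single motif other than ATATAA was common. A match describes the letters in the window and says nothing on whether a factor was bound.

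Hba-a1 was the most abundant of the genes by read count in 12 of the 13 wild-type libraries, and Hba-a2 in the other. Its normalised read counts in VAT were 4170.2, 2675 and 5094 at 3 months and 512, 631, 1531 and 161 at 24 months. In spleen they were 30113 and 27869 at 3 months and 16905, 7565, 8866 and 12709 at 24 months. Every 24-month library lay below every 3-month library of its tissue, and every VAT library lay below every spleen library.

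Hba-a2 followed Hba-a1 closely, with 2843, 2036 and 4478 in VAT at 3 months and 622, 459, 1292 and 154 at 24 months. The spleen libraries held 28746 and 27352 at 3 months and 14775, 6748, 7465 and 11471 at 24 months. The order of the libraries within 24-month spleen was that of Hba-a1, with replicates 1 and 4 high and replicates 2 and 3 low.

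The beta globin Hbb-bs stood at 2105, 1407 and 2634 in VAT at 3 months and at 432, 304, 1089 and 81.7 at 24 months. Its spleen values were 16735 and 18779.7 at 3 months and 8951, 3928, 4327 and 7253 at 24 months. As for the alpha chains, VAT replicate 3 was the highest and replicate 4 the lowest of the 24-month VAT libraries.

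Hbb-bt, which was lower than Hbb-bs in every library, read 557, 540.3 and 627 in VAT at 3 months and 72.8, 60.2, 251 and 38.9 at 24 months. In spleen it read 6297 and 6694 at 3 months and 2971, 1065, 1985 and 2724 at 24 months. The 3 VAT libraries at 3 months lay closer together for this gene (SD 45.9 on a mean of 575) than for the other globins.

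Alas2 was far lower, with 125, 40.4 and 173 in VAT at 3 months and 1, 5.10, 56.8 and 9.50 at 24 months. Here the VAT ages overlapped, since replicate 3 at 24 months lay above replicate 2 at 3 months. The spleen libraries held 984 and 621 at 3 months and 596, 281, 221 and 718 at 24 months, which also overlap. The library of 24-month VAT listed at 1 held no Alas2 read, whereas replicate 3 held 54.

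Slc4a1 and Klf1 were at or near the floor in VAT. Slc4a1 was listed at 1 in 6 of the 7 wild-type VAT libraries and at 2.89 in the other, against 59.0 and 141 in spleen at 3 months and 61.3, 60.9, 1 and 110.4 at 24 months. The spleen library listed at 1, replicate 3, held at most 1 Slc4a1 read. Klf1 read 9.67, 1 and 8.99 in VAT at 3 months and 1, 15.3, 9.47 and 7.60 at 24 months, on at most 15 reads. In spleen it read 140.4 and 140.1 at 3 months and 157, 36.6, 19.5 and 199.5 at 24 months, so the 24-month libraries lay on both sides of the younger pair.

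**Figure D1:**
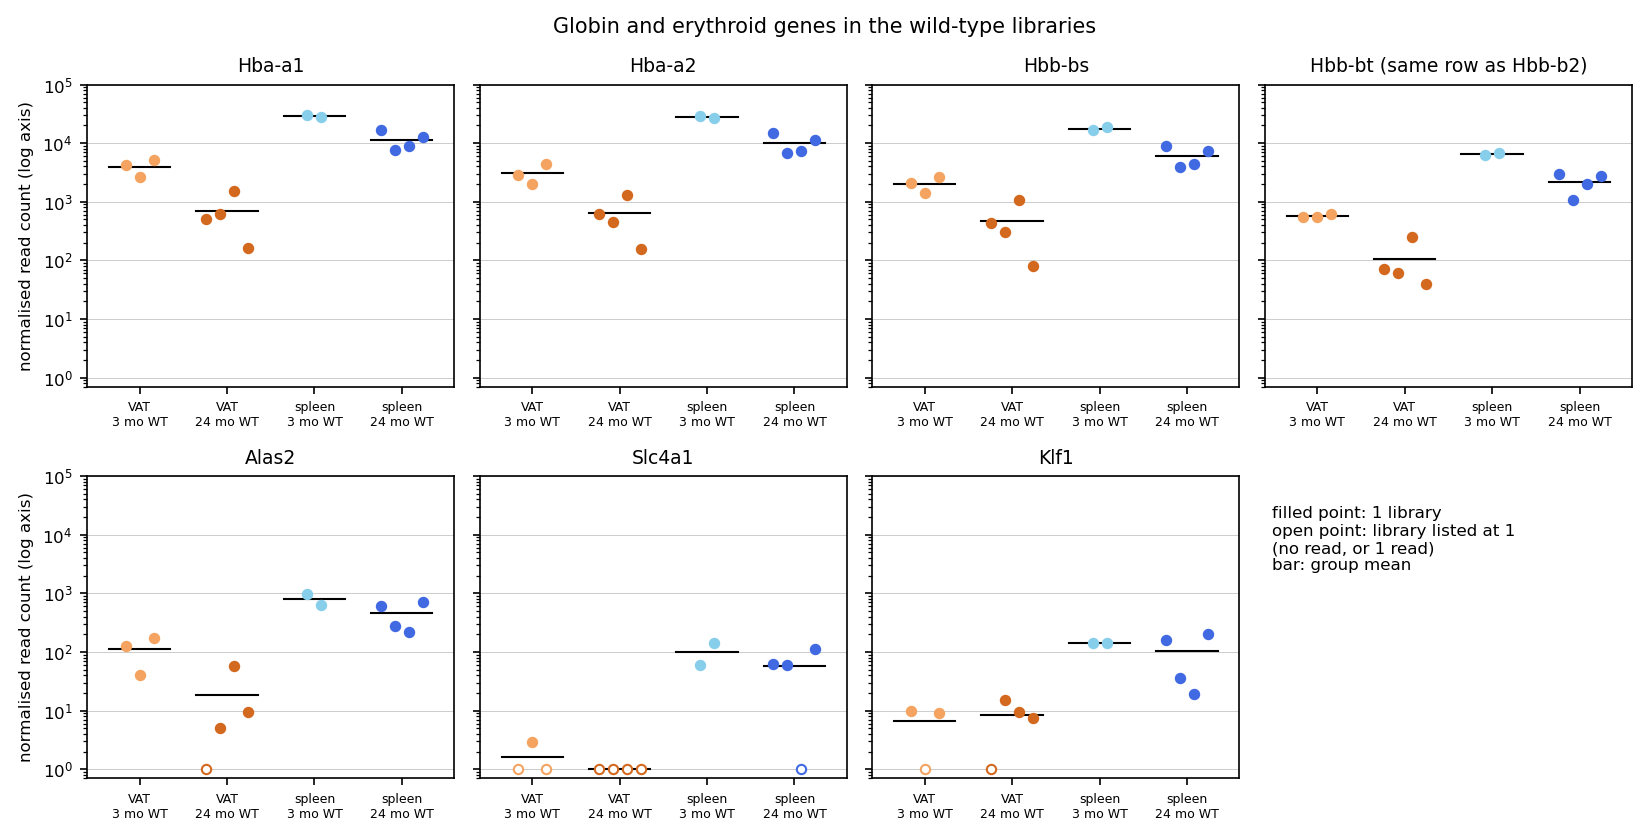
Normalised read count (log axis) of each gene in the 13 wild-type libraries, by tissue and age; filled points are libraries, open points libraries listed at 1, and bars are group means. The spleen libraries lie above the VAT libraries for every globin, and in VAT the 24-month points lie below the 3-month points for the 4 globins.

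Set on a common scale per length, the alpha globins stood highest in every wild-type group, followed by Hbb-bs, Hbb-bt and then Alas2. In 24-month spleen the levels were 552 ± 190 reads per kilobase of exon per M reads for Hba-a1 and 590 ± 207 for Hba-a2 (SD, n = 4). Both come from the same libraries, so these SDs do not measure the spread of their difference. Hbb-bs followed at 310 ± 117 and Hbb-bt at 121 ± 46.9. Alas2 was at 7.40 ± 4.01, Klf1 at 2.64 ± 2.31 and Slc4a1 at 0.468 ± 0.374.

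The same order of the globins held in VAT, at lower levels. At 3 months VAT held 138 ± 41.7 for Hba-a1, 132 ± 52.1 for Hba-a2, 75.1 ± 22.3 for Hbb-bs, 23.0 ± 1.77 for Hbb-bt and 1.32 ± 0.784 for Alas2 (reads per kilobase per M reads, SD, n = 3). At 24 months the values were 24.4 ± 20.5, 26.4 ± 20.5, 17.3 ± 16.0, 4.22 ± 3.98 and 0.211 ± 0.310 in that order (n = 4). The SD of the alpha globins and Hbb-bs was nearly as large as their mean in this group, where replicate 3 stood above the other libraries.

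In VAT, the 4 globin measurements and Alas2 were lower at 24 months than at 3 months in wild-type mice, and Slc4a1 and Klf1 showed no difference that the test could detect. Hba-a1 fell from 3979.9 ± 1221 (SD, n = 3) to 709 ± 583 (n = 4), which was 5.62-fold lower, with a difference of -2.85 on the log2(value + 1) scale (95% interval -3.94 to -1.76, adjusted p = 0.00512). Hba-a2 was 4.94-fold lower (log2 -2.60, adjusted p = 0.00810), Hbb-bs 4.30-fold (log2 -2.59, adjusted p = 0.0179) and Hbb-bt 5.43-fold (log2 -2.81, adjusted p = 0.00354). Alas2 fell 6.23-fold, from 113 ± 67.2 to 18.1 ± 26.0 (log2 -3.38, SE 0.88, adjusted p = 0.0361), with overlapping groups. Replicate 3 of 24-month VAT made these folds of means smaller. Without it they were 9.16 for Hba-a1, 7.57 for Hba-a2, 7.51 for Hbb-bs, 10.02 for Hbb-bt and 21.7 for Alas2.

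So 5 of 7 measurements were called lower at an adjusted p under 0.05, where 3.17% of the 13702 genes tested were. Here and in the counts below, the globin measurements are not independent of each other. The copies of each pair are nearly identical, and the globins varied together. In 4 of 7, every 24-month library lay below every 3-month one, which held for 10.6% of all genes. The median difference of the 7 was -2.60, beside 0.04 over all genes. Klf1 differed by 0.30 (interval -1.75 to 2.35) and Slc4a1 by -0.32 (-2.70 to 2.06), both on reads too few to set a direction.

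In bulk samples like these, fewer cells of a type and less RNA per cell cannot be told apart. Hba-a1 and Hbb-bt kept their call in all 16 settings tried. Hba-a2 lost it without 3-month VAT replicate 3 (adjusted p = 0.0642), Hbb-bs without 3-month replicate 1 (0.0633) or 3 (0.107), and Alas2 was called in 7 of 16 settings, with an adjusted p of 0.00526 to 0.192. Leaving out 3-month replicate 3 left 2 of the 7 called, and leaving out replicate 1 left 3.

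Hbb-b1, the symbol of the major beta chain in another mouse haplotype, also had a row. It fell in VAT from 3041 ± 1183 to 609 ± 504 (log2 -2.63, adjusted p = 0.00843, and 0.0657 without 3-month replicate 3). Its reads stood at 1.16 to 1.34 of those of Hbb-bs in spleen and at 0.909 to 1.86 in VAT. Whether it shares reads with the beta globins of the set is not known, so it may not be a separate measurement. None of the 14 other haem synthesis genes tested was called in VAT with age, and the most abundant of them, Tmem14c and Slc25a39, differed by log2 -0.08 and 0.03. Of 15 erythroid transcription factors, 1 fell: E2f2, a cell cycle factor of late erythroblasts, from 233 ± 70.5 to 75.6 ± 44.9 (adjusted p = 0.0246). Of 17 genes of the red cell membrane and skeleton, 2 fell: the water channel Aqp1 (652 ± 185 to 140.1 ± 92.3, adjusted p = 0.0496) and Cd24a (8142 ± 851 to 2747 ± 1519, adjusted p = 0.0167), a surface protein that many blood cells and endothelia also carry. No erythroid receptor or iron uptake gene of 8 was called. Of 17 genes of late erythroid maturation 1 rose: Blvrb, the biliverdin reductase that macrophages also make (8644 ± 1069 to 13651 ± 2020, adjusted p = 0.0465).

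Genes of macrophages that recycle haem and iron moved in both directions, with 2 of 23 higher and 2 lower, where 2.23% of all genes were higher. The iron exporter Slc40a1 rose from 2344 ± 517 to 4506 ± 1071 (adjusted p = 0.0331) and Hpgds from 3757 ± 637 to 8006 ± 2328 (adjusted p = 0.0302). Bach1, a haem-sensing repressor, fell from 4336 ± 896 to 2227 ± 387 (adjusted p = 0.0368) and Nfe2l2 from 21226 ± 1988 to 15509 ± 1932 (adjusted p = 0.0486). Of 18 genes of red cell engulfment and of island macrophages, Nr1h3 (437 ± 94.3 to 1052 ± 398, adjusted p = 0.0228) and Dnase2a (1079 ± 89.8 to 1712 ± 277, adjusted p = 0.0468) rose. Without 3-month VAT replicate 3, E2f2, Aqp1, Cd24a, Blvrb and these 6 genes all lost their call, with adjusted p values of 0.0883 to 0.222.

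Some markers of other cells also differed between the ages in VAT. Of 11 endothelial markers 3 fell, and their summed level was 2553 to 4378 at 3 months and 846 to 1845 at 24 months. Of 13 T and NK cell markers 2 fell (summed 3130 to 3871 against 1670 to 2676), while 5 of 11 B cell markers and 2 of 7 plasma cell markers rose. None of 13 neutrophil markers was called (summed 2524 to 6883 against 719 to 7938). The 24-month VAT library with the lowest globins, replicate 4, also had the lowest summed neutrophil markers, at 719, and the lowest summed platelet markers, at 43984, of its group. Summed platelet markers were higher in VAT than in spleen at 24 months, although 14 of the 15 genes were lower in VAT. That sum therefore need not track platelets. The part of these cells in the globin values was not tested.

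In spleen, the globins were also lower at 24 months, but no measurement passed the threshold. Hba-a1 stood at 28991 ± 1587 (SD, n = 2) at 3 months and 11511 ± 4207 (n = 4) at 24 months, a difference of log2 -1.40 (95% interval -2.64 to -0.16, adjusted p = 0.169). Hba-a2 differed by -1.54 (-2.76 to -0.33, adjusted p = 0.124), Hbb-bs by -1.62 (-3.03 to -0.21, adjusted p = 0.162) and Hbb-bt by -1.67 (-2.83 to -0.52, adjusted p = 0.0805). The groups did not overlap for any of these 4, which holds for 27.3% of all genes in one direction or the other.

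None of 7 was called, where 6.20% of the 13702 genes were, and 4 of 7 had an unadjusted p under 0.05, where 22.0% of all genes did. Alas2 (-0.95, interval -3.08 to 1.18), Slc4a1 (-1.60, -4.30 to 1.10) and Klf1 (-1.01, -3.33 to 1.31) had overlapping groups and intervals across 0. The median of the 7 was -1.54 and that of all genes 0.0. Fitted on the spleen groups alone, the 4 globins were called. Their adjusted p values were 0.00603 to 0.0111 when only these 2 groups entered and 0.00972 to 0.0203 in the spleen table. Fewer of all genes were called with only these 2 groups than with all wild-type libraries, as counted further on. The share of all genes called in the spleen table is not given here.

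Summed neutrophil markers were lower in the same spleen comparison, going from 654437 and 827929 at 3 months to between 177303 and 368127 at 24 months, with 3 of 13 called lower. Macrophage markers were called lower in 3 of 13 (summed 320790 and 403669 against 199218 to 295404). Among the erythroid lists, 1 of 14 haem synthesis genes rose (Alad, 646 ± 271 to 1391 ± 302, adjusted p = 0.0405), and of 8 receptor and iron uptake genes Kit rose (463 ± 28.8 to 1132 ± 98.5, adjusted p = 0.0449) and the mitochondrial iron importer Slc25a37 fell (1852 ± 383 to 937 ± 80.3, adjusted p = 0.0252). None of 15 transcription factors, 17 membrane genes or 17 late maturation genes was called, where 2.80% of all genes were higher and 3.40% lower. Of 23 recycling genes, 1 rose, the copper oxidase Cp (27.6 ± 24.6 to 248 ± 180, adjusted p = 0.00399), and 4 fell, among them haptoglobin, Hp (66895 ± 21542 to 24589 ± 6344, adjusted p = 0.0105). Without 3-month spleen replicate 1, Alad, Kit, Slc25a37, Cp and Hp all lost their call (adjusted p of 0.0547 to 0.37), and the part of neutrophils in these values was not tested.

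Whether the age difference was larger in VAT than in spleen was tested directly. The interaction was -1.45 for Hba-a1 (95% interval -3.10 to 0.20, adjusted p = 0.37) and -2.43 for Alas2 (-5.27 to 0.41, adjusted p = 0.385), and the adjusted p values of the 7 ran from 0.37 to 0.757. None was called, where 2.74% of all genes were, and none had an unadjusted p under 0.05, where 16.7% of all genes did. The intervals are wide, so differences of several-fold between the tissues cannot be told from none.

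At both ages, all 7 measurements were lower in VAT than in spleen. These comparisons use the same groups as those of age and are not independent of them. At 24 months Hba-a1 was 16.2-fold lower (log2 -4.36, interval -5.37 to -3.35, adjusted p = 1.8e-06), Hba-a2 16.0-fold (log2 -4.30), Hbb-bs 12.8-fold (log2 -4.12) and Hbb-bt 20.6-fold (log2 -4.63, adjusted p = 4.27e-07). Alas2 was 25.1-fold lower (log2 -5.45, adjusted p = 4.91e-05) and Klf1 12.4-fold (log2 -3.26, adjusted p = 0.00677). Without 24-month VAT replicate 3 the folds of the globins and Alas2 were 26.5 for Hba-a1, 24.6 for Hba-a2, 22.4 for Hbb-bs, 38.1 for Hbb-bt and 87.3 for Alas2.

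Slc4a1, listed at 1 in all 4 of the 24-month VAT libraries, was at least 18.7-fold lower there, set against a floor of 3 reads per library (fitted difference log2 -3.93, adjusted p = 0.00536). Its groups overlapped through spleen replicate 3, and those of the other 6 did not. All 7 of 7 were called lower, where 22.5% of all genes were, and 6 of 7 did not overlap, where 19.8% of all genes did not in this direction. Each of the 7 kept its call in every setting tried.

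At 3 months VAT was 7.28-fold lower than spleen for Hba-a1 (log2 -2.91, interval -4.22 to -1.61, adjusted p = 0.00133), 8.99-fold for Hba-a2 (log2 -3.24), 8.67-fold for Hbb-bs (log2 -3.16) and 11.3-fold for Hbb-bt (log2 -3.50, adjusted p = 0.000161). Alas2 was 7.11-fold lower in VAT (log2 -3.01, adjusted p = 0.0318) and Klf1 21.4-fold (log2 -4.56, adjusted p = 0.00483). Slc4a1 rested on 3 reads in VAT against 218 in spleen, a ratio of 94.3 after scaling by the size factors (exact 95% interval 31.8 to 461, counting error only; fitted difference log2 -5.21, adjusted p = 0.00551). Again 7 of 7 were called lower (18.7% of all genes) and 7 of 7 did not overlap (29.4% of all genes).

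With only 2 young spleen libraries, some of these calls rest on single libraries. Alas2 lost its call with DESeq2 (adjusted p = 0.0582), without 3-month spleen replicate 1 (adjusted p = 0.157) or 2 (0.0716), and without 3-month VAT replicate 1 (0.0509) or 2 (0.112). Slc4a1 lost it without spleen replicate 2 (0.0552).

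**Figure D2:**
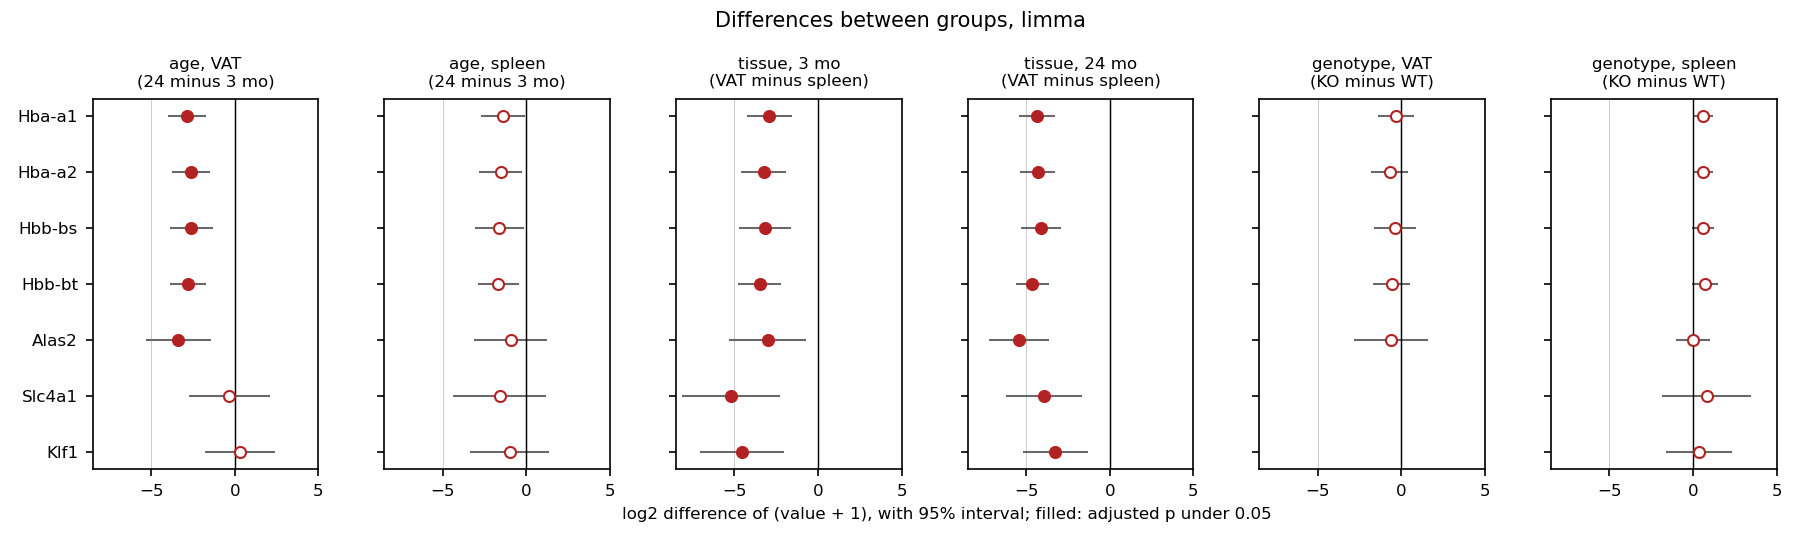
Difference on the log2(value + 1) scale with its 95% interval for each gene in the 4 wild-type and 2 genotype comparisons (KO stands for Nlrp3-/-, WT for wild type, mo for months); filled points have an adjusted p under 0.05. All 7 genes lie below 0 in both tissue comparisons, 5 of 7 are called for age in VAT, and none for age in spleen or for genotype.

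Several further erythroid genes were detected in spleen and not in VAT at this depth. Car1, the carbonic anhydrase of erythroid cells, and Hemgn, a nuclear protein of erythroblasts, were listed at 1 in all 7 wild-type VAT libraries and in none of the 6 spleen libraries. The spleen values of Car1 were 893 and 493 at 3 months and 1809, 347, 611 and 2378 at 24 months. Hemgn stood at 34.6 and 53.8 and then 69.6, 43.1, 22.6 and 131. Set against a floor of 3 reads per library, the 24-month VAT level was at least 412-fold lower for Car1 and 21.3-fold for Hemgn, and the 3-month level at least 209-fold and 13.3-fold lower.

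The 3-month VAT libraries, with 2675 to 5094 normalised counts of Hba-a1, were among those with both genes listed at 1. The Rh protein gene Rhag, the skeleton protein gene Add2, Tfr2 and Tspo2 were also at 1 in 7 of 7 VAT libraries, and at 1 in 2 or 3 of the 6 spleen libraries; these 4 were picked out after their values were seen. Car2, another carbonic anhydrase, was present in VAT but lower than in spleen. It stood at 179 ± 139 in 24-month VAT and 2637 ± 1351 in spleen (log2 -3.99, adjusted p = 1e-06).

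**Figure D3:**
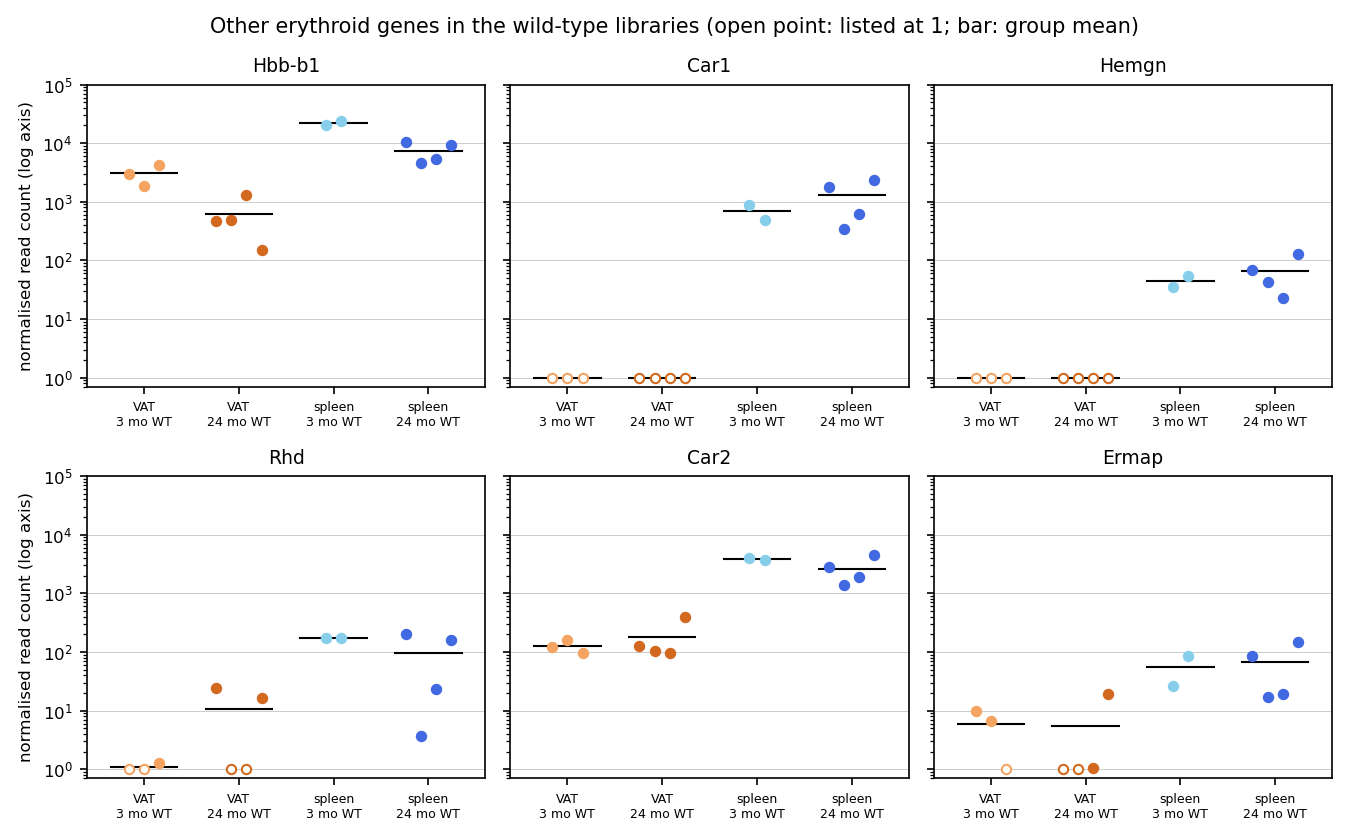
Normalised read count (log axis) of 6 further erythroid genes in the 13 wild-type libraries by tissue and age; open points are libraries listed at 1. Car1 and Hemgn sit at 1 in all 7 VAT libraries and above it in all 6 spleen libraries. Hbb-b1, which may share reads with the beta globins of the set, follows the globins.

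Over the wider lists, tissue differences ran both ways, as they did over all genes, where 26.6% were higher in VAT at 24 months and 23.2% at 3 months. Of 17 late maturation genes tested, 7 were lower and 2 higher in VAT at 24 months (median log2 -1.07, beside 0.02 over all genes), and 10 were lower and 2 higher at 3 months (median -1.32, beside 0.07). Of 15 erythroid transcription factors, 8 were lower and 4 higher at 24 months, led by Bcl11a (50.4 ± 31.4 in VAT, 2813 ± 608 in spleen), Myb (22.6 ± 35.5 and 280.1 ± 56.0), E2f2 (75.6 ± 44.9 and 1433 ± 176) and Nfe2 (155 ± 129 and 2381 ± 806). Bcl11a, Myb and Nfe2 are also genes of B cells, progenitors and megakaryocytes. Of 17 membrane genes, 7 were lower and 4 higher, and of the 14 haem synthesis genes 3 were lower and 3 higher, with Alas1, the form of the enzyme found in all tissues, higher in VAT (4479 ± 1581 against 2159.5 ± 651, log2 1.05, adjusted p = 0.00176) where Alas2 was lower.

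Of 8 receptor and iron uptake genes, 5 were higher in VAT at 24 months, 1 was lower and 2 were not called. The higher ones included Tfrc, the transferrin receptor (4551 ± 1260 against 369 ± 144, log2 3.66), Steap3 (2136 ± 441 against 76.3 ± 21.0, log2 4.82) and the iron transporter Slc11a2 (2236 ± 689 against 359 ± 109.5, log2 2.63), and the lower one was Kit (95.1 ± 31.6 against 1132 ± 98.5, log2 -3.63). Of 23 recycling genes 16 were higher and 3 lower in VAT at 24 months. The lower ones were the haemoglobin scavenger Hp (2027 ± 557 against 24589 ± 6344), Slc40a1 (4506 ± 1071 against 38583 ± 3928) and Spic (1537 ± 112 against 8668 ± 1181), the transcription factor of red pulp macrophages. In the engulfment list 9 were higher, led by Gas6 (14260.2 ± 3790.3 against 37.7 ± 42.5), and 7 lower, among them Treml4 (347 ± 82.5 against 7760.0 ± 585).

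Counted gene by gene, most markers of other blood cells separated the tissues in the same direction as the globins. At 24 months 13 of 13 neutrophil markers, 11 of 11 B cell markers, 13 of 13 T and NK cell markers and 14 of 15 megakaryocyte and platelet markers were lower in VAT, while 12 of 13 macrophage markers were higher. The summed macrophage markers were 1169366 to 1183357 in VAT and 199218 to 295404 in spleen. Summed megakaryocyte and platelet markers ran against their gene count, at 43984 to 70859 in VAT and 18016 to 41428 in spleen. The part of other cells in the tissue difference was not tested.

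Within the 24-month spleen groups, most of 10 further erythroid genes shared their highest or lowest libraries with the globins, and in VAT most did not. These were Hbb-b1, Car1, Car2, Hemgn, Rhd, Ermap, Nfe2, E2f2, Myb and Bcl11a. They are only some of the listed genes, and Hbb-b1 may share reads with the beta globins of the set. No share over all genes is given for these orders, here or for the Nlrp3-/- libraries. The counts therefore do not set erythroid genes apart from other genes. In wild-type 24-month spleen, replicates 1 and 4 were the highest libraries for 7 of 7 measurements, and for 8 of the 10 further genes. The lowest library was replicate 2 for the globins and replicate 3 for Alas2, Slc4a1 and Klf1. The highest library exceeded the lowest 2.24-fold for Hba-a1, 3.25-fold for Alas2 and 10.3-fold for Klf1. Summed neutrophil markers were also highest in replicates 1 and 4, at 368127 and 361584 against 201501 and 177303 in replicates 2 and 3, and so were the summed cell cycle genes, at 25183 and 25212 against 19207 and 18037. Summed macrophage markers did not follow that order, with 295404 in replicate 1 and 199218 in replicate 4.

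The Nlrp3-/- spleen libraries were ordered too: replicate 1 was the highest and replicate 3 the lowest for 7 of 7 measurements, and replicate 3 was the lowest for 9 of 10 further erythroid genes. Summed neutrophil markers were lowest in the same replicate 3 (386188, against 669708 in replicate 1 and 1140162 in replicate 2). In wild-type 24-month VAT, replicate 3 was the highest for the 4 globins and Alas2 but not for Klf1 (9.47, against 15.3 in replicate 2). Of 10 further erythroid genes, 8 varied between these VAT libraries, and replicate 3 was the highest for 1 of them (Hbb-b1) and the lowest for 2 (Car2 and E2f2). In Nlrp3-/- VAT, replicate 3 was the lowest for 4 of 5 measurements and for 2 of 6 further erythroid genes.

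The ratios between globin genes spanned a narrower range than the levels did in spleen. In the 9 spleen libraries, Hba-a1 ranged from 8267 to 32048 in the spleen table, while the reads of Hbb-bs stood at 0.488 to 0.674 of those of Hba-a1. Those of Hba-a2 stood at 0.842 to 0.981 of Hba-a1, and those of Hbb-bt at 0.271 to 0.459 of Hbb-bs. These are ratios of reads, not corrected for length, and the split within each pair of copies is uncertain as described above.

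In the 11 VAT libraries the same ratios were wider: 0.482 to 0.844 for Hbb-bs over Hba-a1, 0.524 to 1.22 for Hba-a2 over Hba-a1 and 0.168 to 0.477 for Hbb-bt over Hbb-bs. The fewest reads of a globin gene in a VAT library were 37, for Hbb-bt. Alas2 reads were 0.0183 to 0.0565 of Hba-a1 reads in spleen and 0 to 0.0588 in VAT, where 5 of the 11 libraries lay below every spleen library and 1 above. The VAT ratios of Alas2 at 24 months rest on 0 to 54 reads in wild-type and 0 to 9 in Nlrp3-/- libraries.

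**Figure D4:**
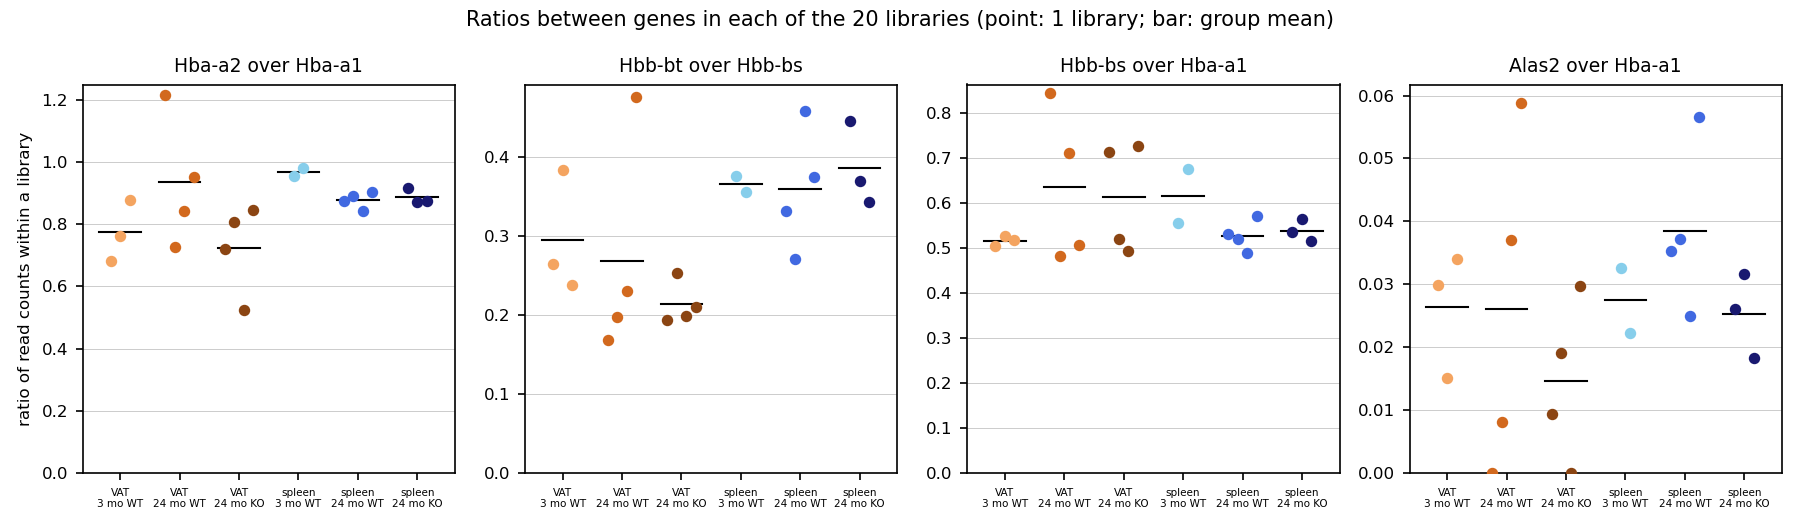
Ratio of reads between pairs of genes within each of the 20 libraries, by group; points are libraries. Hbb-bs over Hba-a1 lies between 0.488 and 0.674 in spleen and between 0.482 and 0.844 in VAT, and Alas2 over Hba-a1 reaches 0 in VAT.

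No gene of the set passed the test between Nlrp3-/- and wild-type mice at 24 months. In VAT, Hba-a1 was at 538, 496, 332 and 280.2 in Nlrp3-/- libraries and at 480.4, 584, 1425 and 152 in wild-type ones of the VAT table. Alas2 was at 5.0, 9.46, 1 and 8.35 against 1, 4.73, 52.9 and 8.96. The Nlrp3-/- values lay inside the wild-type range for both genes. Hba-a2 ran from 174 to 401 against 145 to 1203 in wild type, Hbb-bs from 163 to 383 against 77.1 to 1014 and Hbb-bt from 32.5 to 74.0 against 36.8 to 234. The groups overlapped for all 5 measurements, and the top of the wild-type range was replicate 3 each time.

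The VAT differences ran from log2 -0.69 for Hba-a2 (interval -1.74 to 0.37) to -0.32 for Hba-a1 (-1.36 to 0.71), with adjusted p values of 0.874 to 0.969. None of the 5 measurements in the VAT table was called, where 0.00764% of its 13090 genes were, and none had an unadjusted p under 0.05, where 6.09% did. Slc4a1 and Klf1 were not analysed in this comparison. Without wild-type replicate 3, the differences of Hba-a1 (0.18), Hbb-bs (0.21) and Alas2 (0.27) changed sign.

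In spleen, Hba-a1 stood at 24306, 18663 and 12233 in Nlrp3-/- libraries and at 18384, 8267, 9640.4 and 13859 in wild-type ones of the spleen table. Hbb-bs stood at 12997, 10521 and 6305 against 9734, 4292, 4705 and 7909, and Hbb-bt at 5799.5, 3893 and 2162 against 3231, 1163, 2158 and 2970.3. The groups overlap for every measurement, with replicates 1 and 2 of Nlrp3-/- above all wild-type libraries for the 4 globins.

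Alas2 was at 633, 589.8 and 224 in Nlrp3-/- spleen and at 648, 307, 240.3 and 783 in wild type. Slc4a1 was at 142, 73.4 and 16.5 against 66.7, 66.6, 1 and 120.4. Klf1 was at 259, 143 and 23.3 against 171, 39.9, 21.2 and 218. Replicate 1 of Nlrp3-/- lay above all wild-type libraries for Slc4a1 and Klf1 but not for Alas2.

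None of the 7 was called in spleen, where 0.00766% of 13053 genes were. The 4 globins differed by log2 0.57 to 0.72, with unadjusted p values of 0.0394 to 0.0443, as did 6.19% of all genes at that level, and an adjusted p of 0.793 each. Hba-a1 was 1.47-fold higher in Nlrp3-/- spleen (18401 ± 6041, n = 3, against 12537 ± 4566, n = 4; interval of the log2 difference 0.03 to 1.11). Alas2 differed by -0.01 (-0.96 to 0.94), Slc4a1 by 0.81 (-1.80 to 3.43) and Klf1 by 0.34 (-1.58 to 2.26). Summed neutrophil markers stood at 386188 to 1140162 in Nlrp3-/- and 192793 to 400329 in wild-type spleen of this table, with none of 13 called, and their part in the globin values was not tested.

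None of the erythroid or recycling lists held a called gene for genotype in either tissue. The difference of the genotype effects between tissues was not called for any of the 5 genes in both tables (log2 -1.31 to -0.60, adjusted p = 0.67 to 0.941). With limma no gene of 12150 was called for that interaction (0.00%), with edgeR 1 was, and 979 (8.06%) had an unadjusted p under 0.05.

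**Figure D5:**
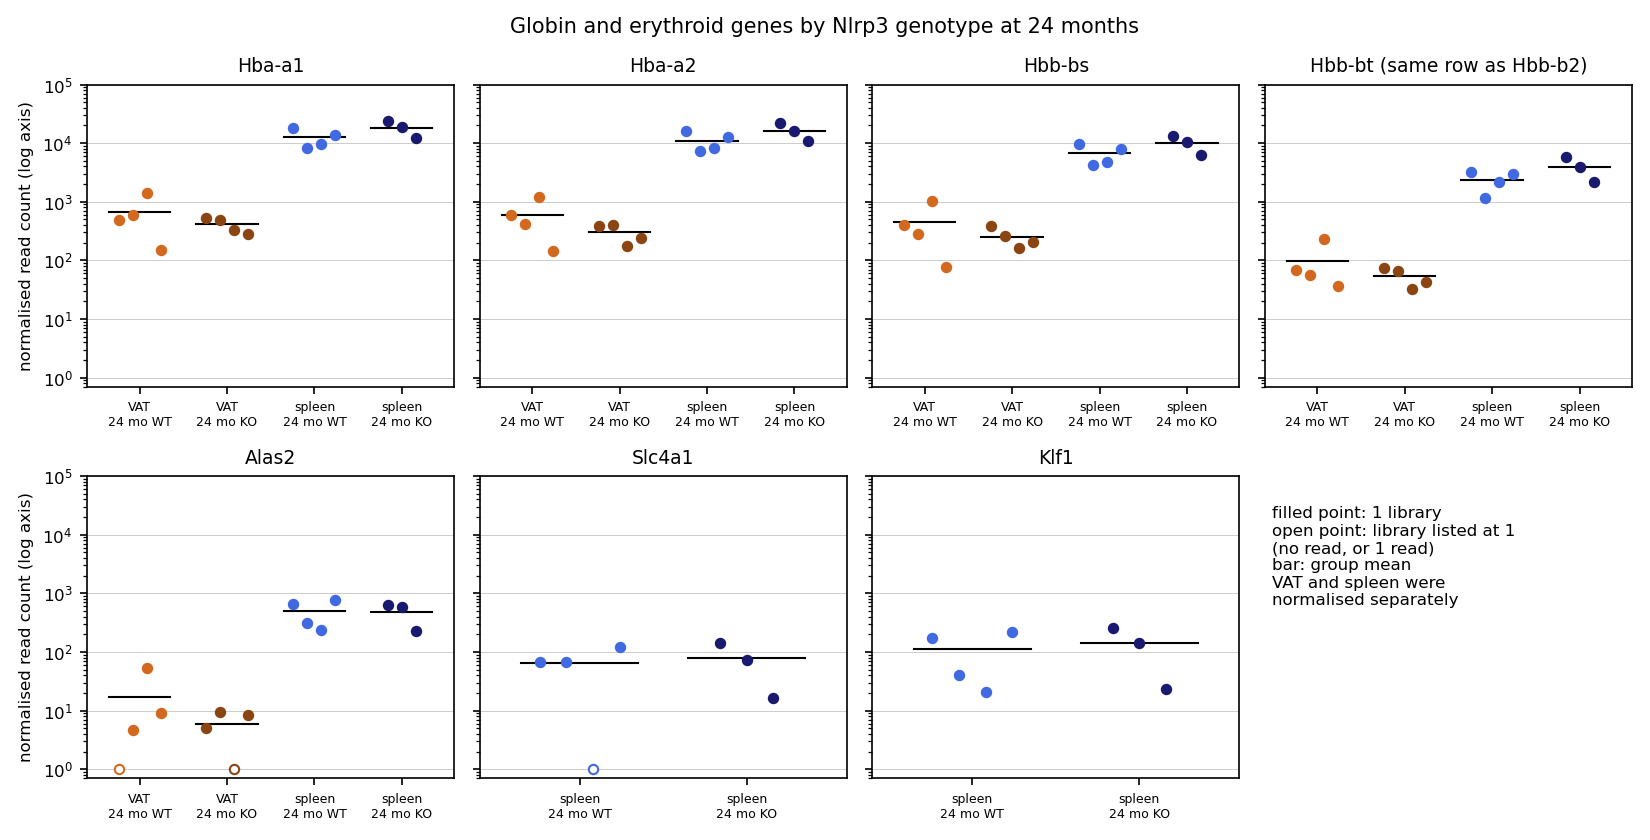
Normalised read count (log axis) at 24 months in wild-type and Nlrp3-/- libraries, with VAT and spleen taken from tables that were normalised separately; points are libraries, open where listed at 1, and bars are means. The genotypes overlap for every gene in both tissues.

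Across libraries, the 3 genes whose levels most resembled Hba-a1 were Hba-a2, Hbb-bs and Hbb-b1 in both tissues, and Smo in VAT and Zbtb16 in spleen came before Hbb-bt. Over the 11 libraries of the VAT table, Pearson's r of the log2 values with Hba-a1 was 0.98 for Hba-a2, 0.98 for Hbb-bs, 0.97 for Hbb-bt and 0.83 for Alas2. The 5 closest genes outside the set were Hbb-b1 (0.98), Smo (0.98), Hebp2 (0.97), Rras2 (0.96) and Pdlim1 (0.96). In VAT the points fall into young and old libraries, so a gene that differs between the ages can score high on that alone. With each group's mean taken out, r in VAT was 0.95 for Hba-a2, 0.96 for Hbb-bs, 0.88 for Hbb-bt and 0.47 for Alas2. On the same measure Smo stood at 0.97, above each of these. Hbb-b1 stood at 0.95, Rras2 at 0.89, Hebp2 at 0.86 and Pdlim1 at 0.82. Likeness to Hba-a1 within groups was therefore not particular to the globins. The 24-month VAT libraries held only 0 to 54 Alas2 reads in wild type and 0 to 9 in Nlrp3-/-.

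Over the 9 spleen libraries, r with Hba-a1 was 0.998 for Hba-a2, 0.99 for Hbb-bs, 0.97 for Hbb-bt, 0.80 for Alas2, 0.73 for Klf1 and 0.57 for Slc4a1. With each group's mean taken out it was 0.997, 0.98, 0.93, 0.86, 0.90 and 0.54 in the same order. The closest others were Hbb-b1 (0.99), Zbtb16 (0.98), Cdkn2d (0.95), Ceacam10 (0.95) and Dgkh (0.95). Taking out each group's mean gave 0.97, 0.93, 0.89, 0.88 and 0.86 for these others, in the same order. Alas2 was closest in spleen to Gpr182 and Zfyve27 (0.96 each), B930059L03Rik and Cenpe (0.94 each) and Snapc5 (0.93), with Klf1 at 0.92. In VAT it was closest to Glg1 and Tspan2 (0.92 each) and to Atp5d, Syt15 and Ywhag (0.89 each). These values describe few libraries that share group, normalisation and depth, and chosen as the highest of all genes tested they carry no test.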

How the data were processed

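Poly-A RNA of sorted cells was sequenced from strand-specific libraries, per the labels' protocols. The submitters' processing notes name CASAVA 1.8.2, TopHat, Partek, DESeq2 and the mm10 genome, without saying what each did; how reads of near-identical genes were counted is not given in the sources used here. The deposited tables hold 1 signal per gene and library, a read count divided by a size factor and raised to at least 1. Whole reads were recovered by undoing the size factor: at least 99.777% of values up to 20000 reads came out whole within 0.05 read.

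Levels were compared with limma 3.58.1 (R 4.3.3, with trend) on log2(value + 1), two-sided, over genes with a mean of at least 10, with Benjamini-Hochberg adjustment over all genes tested and a threshold of 0.05. A difference on this scale understates the change of low genes. The wild-type table served age and tissue, the VAT and spleen tables genotype, and recovered reads of both, rescaled together, the tissue by genotype interaction. The alternatives were a pseudocount of 10, no filter, a mean of at least 50, edgeR 4.0.16 and DESeq2 1.42.0 on recovered reads, the 2 groups alone, the tissue's own table, a replicate block and leaving out each library. The script was checked on simulated data. No 2 libraries of a group were duplicates (chi-square per gene 32.7 to 206.4 over 41 pairs). The labels do not say that replicates came from separate animals, so the p-values measure the spread between these samples, which may be technical.

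The genes were named by rule: the set itself, up to 4 called genes of each list with the largest difference (where none was called, up to 2 of the most abundant), and the 5 genes most like Hba-a1 and Alas2. Some genes that the rule names are not reported here. The set and the lists were chosen with earlier results of these data known, so they support nothing by themselves. Level per length used exonic bases of GENCODE M21; promoters came from RefSeq.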

Additional observations from a re-analysis of the deposited data

Results flagged for a closer look

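In wild-type 24-month VAT, replicate 3 stood apart from the other 3 libraries for a pair of genes. Hbb-bt read 251 there, against 38.9 to 72.8 in the others, and its gap to the nearest library was 0.841 of the whole range. Alas2 read 56.8, against 1 to 9.50, with a gap of 0.848 of the range. Of 18 groups of 4 tested in this way, 2 were found, both in this library. Chance finds about 1 in 20 where values follow a normal distribution. The counts entered without a log, unlike in the tests above, and genes of the same libraries are not independent. That rate therefore need not hold here. For Hba-a1, Hba-a2 and Hbb-bs the same library was the highest without passing that limit.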

How the results depend on the processing

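The number of globin and erythroid measurements called for age in VAT, 5, ran from 2 to 5 on leaving out a library. For age in spleen the count of 0 became 4 with only the 2 groups compared and 4 in the spleen table. The share of all genes called in the spleen table is not given beside that count. The other 118 recounts over alternatives stayed within 1.5 times. Differences that changed sign were of uncalled genes, and the ranges on leaving out a library were -0.48 to 0.00 (Slc4a1) and -0.49 to 0.93 (Klf1) for age in VAT, -0.89 to 0.18 (Hba-a1), -1.02 to 0.21 (Hbb-bs) and -1.31 to 0.27 (Alas2) for genotype in VAT, -0.30 to 0.47 (Alas2), -0.53 to 1.67 (Slc4a1) and -0.37 to 1.34 (Klf1) for genotype in spleen, -0.029 to 1.90 (Slc4a1) for the tissue by age interaction and -1.35 to 0.28 (Alas2) for that of tissue by genotype. The Slc4a1 tissue by age interaction was -2.46 with edgeR and -1.62 with DESeq2, on counts near 0 in VAT; the cause was not tested.

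No pairing by replicate number was seen: the correlation of same-numbered deviations ran from -0.15 to 0.24, and no comparison had every pair over 0.1. Low correlations in groups this small cannot exclude a pairing, and the labels do not state one. With the replicate block no gene of the set changed its call, while Dnase2a, Alad, Kit, Bach1 in spleen and Heph lost theirs, Alas2 for genotype in spleen moved to 0.27, and the 1 gene called for genotype became 2 in VAT, and the 1 in spleen became 5.

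On recovered reads edgeR called 652 genes for age in VAT, 656 for age in spleen, 6255 for tissue at 24 months and 5293 at 3 months. Counts over all genes moved by more than 1.5 times in some settings. For age in VAT, 740 became 1153 with DESeq2, 1159 with the 2 groups alone, 1225 in the VAT table and 216 without 3-month replicate 3. For age in spleen, 850 became 1429 with DESeq2, 546 with the 2 groups alone and 180 without 3-month replicate 1. The interaction of tissue and age went from 375 to 798 with DESeq2 and from 123 to 655 on leaving out a library. Genotype gave 29 genes in VAT and 16 in spleen with DESeq2. Depth limited Slc4a1 and Klf1 in wild-type VAT, at no more than 15 reads. It also limited Alas2 in 24-month VAT, at 0 to 54 reads in wild-type and 0 to 9 in Nlrp3-/- libraries.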
